A study of Homo sapiens with 8 samples.

Results

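Genes that the tumour suppressor p53 switches on were followed in Reh, a leukaemia cell line of precursor B cell origin that is long established in culture, after transfection with active forms of 2 inflammatory signalling proteins. The genes were CDKN1A, MDM2, TP53INP1, SESN1, SESN2, GADD45A, ZMAT3, TP53I3, RRM2B and XPC. Every probe set annotated to exactly 1 of these 10 symbols was taken, which gave 26 of the 54613 probe sets on the array that are not controls. Expression was measured on Affymetrix U133 Plus 2.0 arrays as log2 RMA values, 1 for each probe set and array. The 4 groups of 2 arrays each were IRF5-4D together with IKKβ(EE) (the combination), IKKβ(EE) alone, IRF5-4D alone, and mock, which received control constructs. IRF5-4D is a constitutively active variant of the transcription factor IRF5, and IKKβ(EE) is a constitutively active variant of the IκB kinase β, which releases NF-κB for entry into the nucleus. The arrays of a group, numbered 1 and 3, are biological duplicates according to the series description. Neither the time of harvest nor the transfection efficiency was known. In such bulk samples a change in the number of expressing cells and a change in RNA per cell cannot be told apart.

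The p53 protein is held at low levels in unstressed cells because MDM2, itself a p53 target, marks it for destruction, which forms a negative feedback loop. After DNA damage or other stress p53 accumulates and raises genes that stop the cell cycle (CDKN1A, which encodes p21), repair DNA or supply nucleotides for repair (XPC, RRM2B, GADD45A), and restrain growth signalling (SESN1 and SESN2). Several of these genes also answer to other stress pathways, so their RNA is not a measure of p53 activity alone.

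The promoter that carries p53 feedback sites is shown first, because MDM2 gave most of the changes reported here. MDM2 (chromosome 12, 68808172 to 68850686 in GRCh38) has an outer promoter and an inner one within its first intron, and the inner one is known as the p53-responsive promoter. The 250 bases before the inner start are given from RefSeq on GRCh38.p14 (chr12:68808767-68809016, plus strand), 5′ to 3′, and the capitals mark the 20 bases that match the p53 full-site consensus.

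MDM2 inner promoter: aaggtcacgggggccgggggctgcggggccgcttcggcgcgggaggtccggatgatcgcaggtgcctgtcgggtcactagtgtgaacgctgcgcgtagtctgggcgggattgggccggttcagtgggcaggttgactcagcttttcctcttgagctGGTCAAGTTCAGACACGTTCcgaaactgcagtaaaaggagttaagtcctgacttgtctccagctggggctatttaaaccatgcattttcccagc

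The search used the p53 full-site consensus of 20 bases without a spacer, which reads the same on both strands, and allowed 2 mismatches, a tolerance chosen with this promoter in view. Sites with more mismatches are not marked. The marked site (chr12:68808923-68808942) begins 94 bases before the start and has 2 mismatches. Of 35116 promoter windows of the same length 0.561% held such a match. RefSeq windows were available for 7 of the 10 genes (13 windows), and the overlapping windows of the inner MDM2 promoter were the 2 that held one. The NF-κB consensus of 10 bases, searched on both strands without mismatch, was found in 1 window each of SESN2 and ZMAT3, against 9.96% of all windows. These windows are short, and a match in them is a description of letters only.

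Arrays of a group correlated at 0.994 to 0.996 over all probe sets, and array medians lay between 5.09 and 5.13. With 2 arrays in a group the number of arrays limits the precision. Of 9 B lineage and precursor B markers with a probe set, 8 averaged above the upper quartile of the arrays. No T and NK cell marker and no myeloid marker of 8 each did so, and COL1A1 did so among 8 stromal and epithelial markers. The NK cell marker NKG7 read 5.77 and 6.19 in the combination against 4.49 and 4.79 in mock cells, and the epithelial marker CDH1 read 9.03 and 7.39 in the combination and 5.32 and 4.62 with IRF5-4D against 3.19 and 3.31 in mock cells. The summed level of the stromal and epithelial markers was 9.23 to 9.84 in the combination, 8.60 to 8.65 with IKKβ(EE), 8.66 to 8.84 with IRF5-4D and 8.74 to 8.81 in mock cells (log2). Their part in the results was not tested. IKBKB encodes IKKβ, and its probe set 211027_s_at was at 11.11 and 9.33 in the combination and at 12.57 and 10.98 with IKKβ(EE), against 4.68 and 4.60 with IRF5-4D and 4.80 and 4.06 in mock cells. The other IKBKB probe sets, 209341_s_at and 209342_s_at, were 0.14 and 0.028 higher with IKKβ(EE) than in mock cells and did not pass. On 211027_s_at both groups that received IKKβ(EE) were thus separate from those that did not, and the combination was lower than IKKβ(EE) alone on arrays of the same number. IRF5, the other transfected gene, read 8.0 and 7.82 in the combination, 6.95 and 7.13 with IKKβ(EE), 7.15 and 7.25 with IRF5-4D, and 6.93 and 7.06 in mock cells on 205469_s_at. It rose by 0.92 in the combination (limma adjusted p = 0.00648), whereas the difference of 0.20 with IRF5-4D alone did not pass (limma adjusted p = 0.943), and on 205468_s_at the difference of 0.57 did not pass either (limma adjusted p = 0.688). On 205468_s_at the IRF5-4D arrays read 5.65 and 5.66, against 5.36 and 4.82 in mock cells. On 205469_s_at and 205468_s_at the IRF5-4D arrays thus lay above the mock arrays without passing the test. On the remaining IRF5 probe set, 239412_at, the IRF5-4D arrays read 4.27 and 4.24, within the mock values of 4.38 and 4.03.

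IKKβ(EE) alone raised MDM2 on 3 of its 10 probe sets and TP53INP1 on 1 of its 3. Of the 26 probe sets 4 rose, 0 fell and 22 did not pass limma's test at an adjusted p under 0.05, and the same test called 0.302% of all probe sets, every one of them higher. On 18 of the 26 probe sets, belonging to 8 of the 10 genes, both IKKβ(EE) arrays lay above both mock arrays, against 15.1% of all probe sets, and on 0 both lay below, against 20.7%. The 10 genes, each at the probe set with the highest mean, had a median log2 difference of 0.56, against -0.023 over all probe sets. In the combination 1 of the 26 probe sets rose and 0 fell relative to mock, against 2.09% of all probe sets called, 1.66% higher and 0.425% lower, and this was CDKN1A. Both combination arrays lay above both mock arrays on 4 of the 26, against 17.2% of all probe sets, and below them on 4, against 25.7%. The median over the 10 genes was 0.27, against -0.035 over all probe sets. Set against IKKβ(EE) alone, the combination was lower on 2 of the 26 probe sets, both of MDM2, and higher on 0, against 1.11% of all probe sets called, 0.275% lower and 0.837% higher. Both combination arrays lay below both IKKβ(EE) arrays on 16 of the 26, against 21.7% of all probe sets, and above them on 0, against 18.5%. The 16 belonged to 4 of the 10 genes, and 10 of the 16 were MDM2 probe sets. The comparisons with mock share the mock arrays, and the IKKβ(EE) arrays enter both the comparison with mock and the comparison with the combination, with opposite sign. Probe sets of a gene share its transcripts and are not independent.

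**Figure D1:**
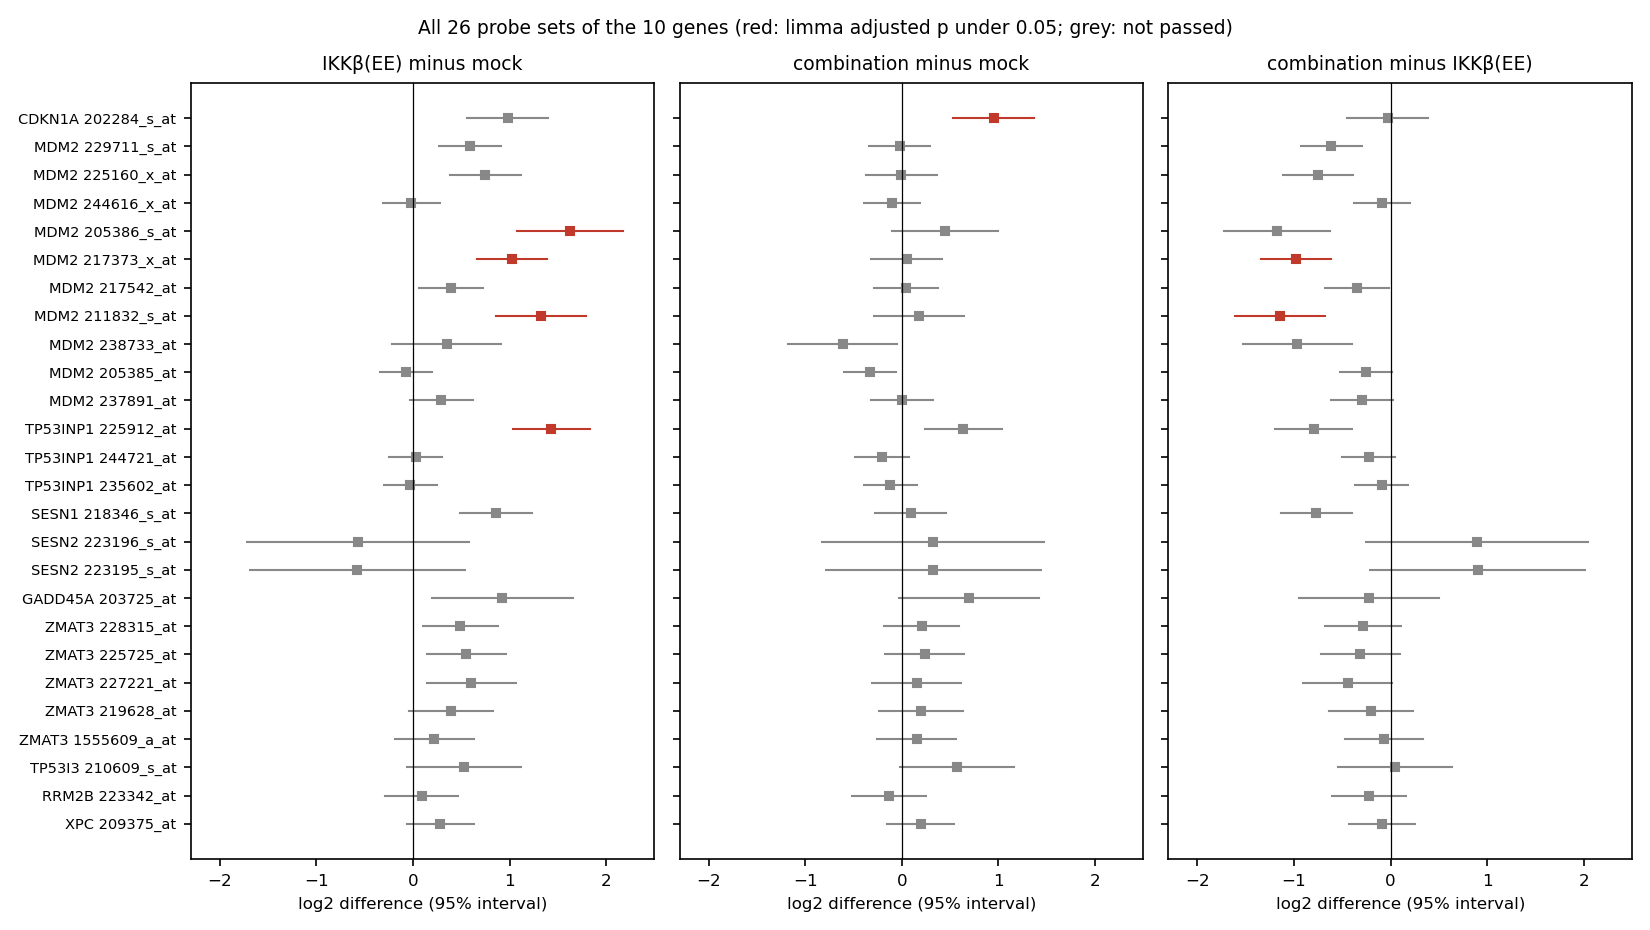
Log2 differences of all 26 probe sets (rows) with 95% intervals from limma, for IKKβ(EE) minus mock, the combination minus mock and the combination minus IKKβ(EE); red marks an adjusted p under 0.05. The 4 red points on the left are 3 MDM2 probe sets and TP53INP1, the 1 in the middle is CDKN1A, and the 2 on the right are MDM2 probe sets below 0.

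MDM2, the ubiquitin ligase that removes p53, rose with IKKβ(EE) on 3 of its 10 probe sets, while in the combination none passed. Probe set 205386_s_at read 7.62 and 6.95 in the combination, 8.38 and 8.54 with IKKβ(EE), 6.87 and 6.97 with IRF5-4D, and 7.15 and 6.52 in mock cells. The IKKβ(EE) arrays stood above the other 6, whose ranges overlapped. The difference between IKKβ(EE) and mock was 1.62 (SE 0.24) or 3.08-fold (limma adjusted p = 0.0337). Probe set 211832_s_at read 6.50 and 5.92 in the combination, 7.35 and 7.35 with IKKβ(EE), 6.24 and 5.98 with IRF5-4D, and 6.23 and 5.82 in mock cells. Again the IKKβ(EE) arrays were the highest, at 1.32 (SE 0.21) above mock with IKKβ(EE) and a limma adjusted p of 0.042. Probe set 217373_x_at, whose suffix marks possible binding to several transcripts, read 7.24 and 6.93 in the combination, 8.15 and 7.98 with IKKβ(EE), 7.0 and 7.10 with IRF5-4D, and 7.22 and 6.85 in mock cells. It was 1.03 (SE 0.16) higher with IKKβ(EE) than in mock cells, with a limma adjusted p of 0.0429.

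The combination was lower than IKKβ(EE) alone by 1.14 (log2 difference -1.14, SE 0.21, limma adjusted p = 0.0361) on 211832_s_at and by 0.98 (log2 difference -0.98, SE 0.16, limma adjusted p = 0.0248) on 217373_x_at. On 205386_s_at the difference was -1.18 (SE 0.24), which did not pass (limma adjusted p = 0.0649). Relative to mock, the combination read 0.45, 0.18 and 0.05 higher on 205386_s_at, 211832_s_at and 217373_x_at, and none of these passed. For 211832_s_at the 95% interval of that difference ran from -0.28 to 0.65. The interval of the 1.32 measured with IKKβ(EE) ran from 0.86 to 1.79, and both differences use the same mock arrays.

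The MDM2 probe sets did not all move. The one with the highest mean, 229711_s_at, read 11.85 and 11.60 in the combination, 12.41 and 12.28 with IKKβ(EE), 11.96 and 11.70 with IRF5-4D, and 11.82 and 11.69 in mock cells. The IKKβ(EE) arrays were again the highest, and the difference from mock of 0.59 (SE 0.14) did not pass (limma adjusted p = 0.265). On 7 of the 10 MDM2 probe sets both IKKβ(EE) arrays lay above both mock arrays, and the 10 differences ran from -0.075 to 1.62. On 10 of 10 both combination arrays lay below both IKKβ(EE) arrays, by differences of -0.088 to -1.18. The position of each probe set within the gene was not analysed here, so the inner and outer promoter transcripts cannot be told apart. When the probe sets of a gene were averaged, no member gene passed in this comparison.

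**Figure D2:**
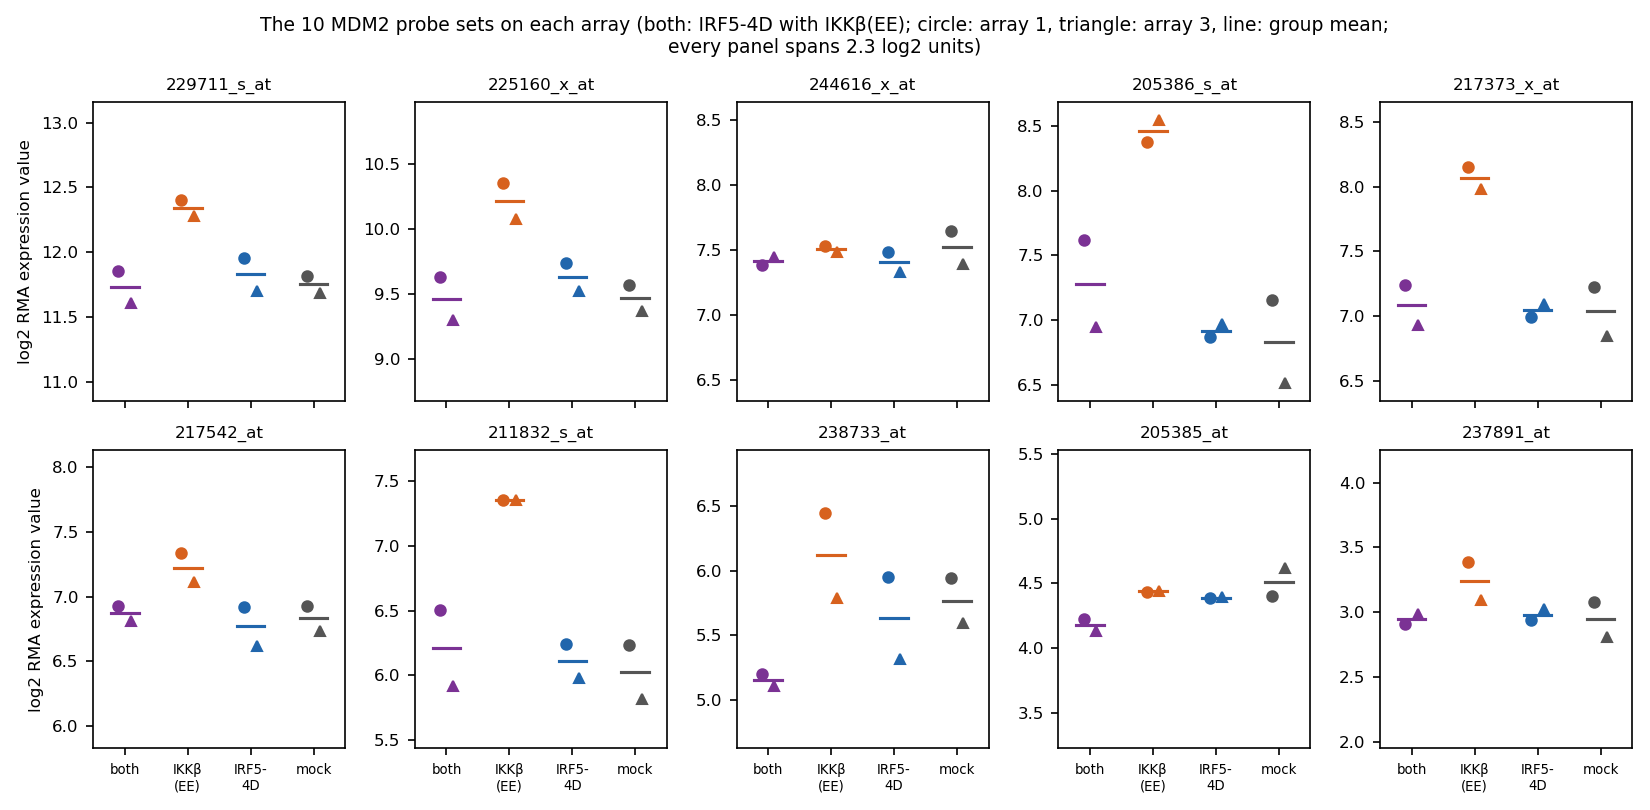
Log2 RMA values of the 10 MDM2 probe sets (panels) on each of the 8 arrays; the x axis gives the group, with the combination labelled both. In the panels of 205386_s_at, 211832_s_at and 217373_x_at the IKKβ(EE) arrays sit above all others, while 244616_x_at and 205385_at show little separation.

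TP53INP1 (chromosome 8, 94925972 to 94949378 in GRCh38) encodes a stress-induced protein that promotes p53 activity and autophagy. Probe set 225912_at read 9.38 and 8.81 in the combination, 9.85 and 9.92 with IKKβ(EE), 9.0 and 8.94 with IRF5-4D, and 8.54 and 8.37 in mock cells. The mock arrays were the lowest and the IKKβ(EE) arrays the highest, and neither pair overlapped with any other group. TP53INP1 rose by 1.43 (SE 0.18) or 2.70-fold with IKKβ(EE) (limma adjusted p = 0.0122). The combination differed from mock by 0.64 (SE 0.18, limma adjusted p = 0.124) and from IKKβ(EE) by -0.79 (SE 0.18, limma adjusted p = 0.083). IRF5-4D alone differed from mock by 0.52 (SE 0.18, limma adjusted p = 0.843). The other TP53INP1 probe sets, 244721_at and 235602_at, ran between 4.09 and 5.03 over the 8 arrays, and with IKKβ(EE) they read 0.027 and -0.029 relative to mock.

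CDKN1A (chromosome 6, 36676463 to 36687332 in GRCh38) encodes p21, the inhibitor of cyclin-dependent kinases through which p53 halts the cell cycle. Its single probe set read 11.03 and 11.05 in the combination, 11.34 and 10.80 with IKKβ(EE), 10.41 and 10.32 with IRF5-4D, and 10.27 and 9.91 in mock cells. The 4 arrays with IKKβ(EE) were the highest 4, and both combination arrays lay between the 2 IKKβ(EE) arrays. The combination was 0.95 (SE 0.19) or 1.93-fold above mock (limma adjusted p = 0.0347). IKKβ(EE) alone was 0.98 (SE 0.19) above mock, a difference of like size that did not pass (limma adjusted p = 0.103) in a comparison where fewer probe sets passed in all. The combination minus IKKβ(EE) was -0.028, with a 95% interval from -0.45 to 0.39. The combination and IKKβ(EE) arrays of CDKN1A thus overlapped, unlike those of MDM2. The 5 genes whose values over the 8 arrays followed CDKN1A most closely among 19774 genes were CYLD, ANKRA2, IFIT3, USP49 and HLA-DMA, with Pearson correlations of 0.975 to 0.979. These correlations describe arrays that share the same 4 groups. CYLD, a deubiquitinase that restrains NF-κB, read 8.95 and 9.13 in the combination, 9.59 and 8.97 with IKKβ(EE), 8.41 and 8.04 with IRF5-4D, and 8.12 and 7.83 in mock cells.

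GADD45A, a growth arrest protein induced by DNA damage, had 1 probe set that read 10.73 and 10.32 in the combination, 11.15 and 10.35 with IKKβ(EE), 9.73 and 9.32 with IRF5-4D, and 10.25 and 9.40 in mock cells. The 4 arrays with IKKβ(EE) again stood above the other 4, and array 1 exceeded array 3 in each group. The difference from mock was 0.70 (SE 0.32) in the combination and 0.93 (SE 0.32) with IKKβ(EE). Neither passed in limma (adjusted p = 0.372 for the combination and 0.624 for IKKβ(EE)). The gap between the mock arrays was 0.85, larger than that of 98.9% of probe sets.

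**Figure D3:**
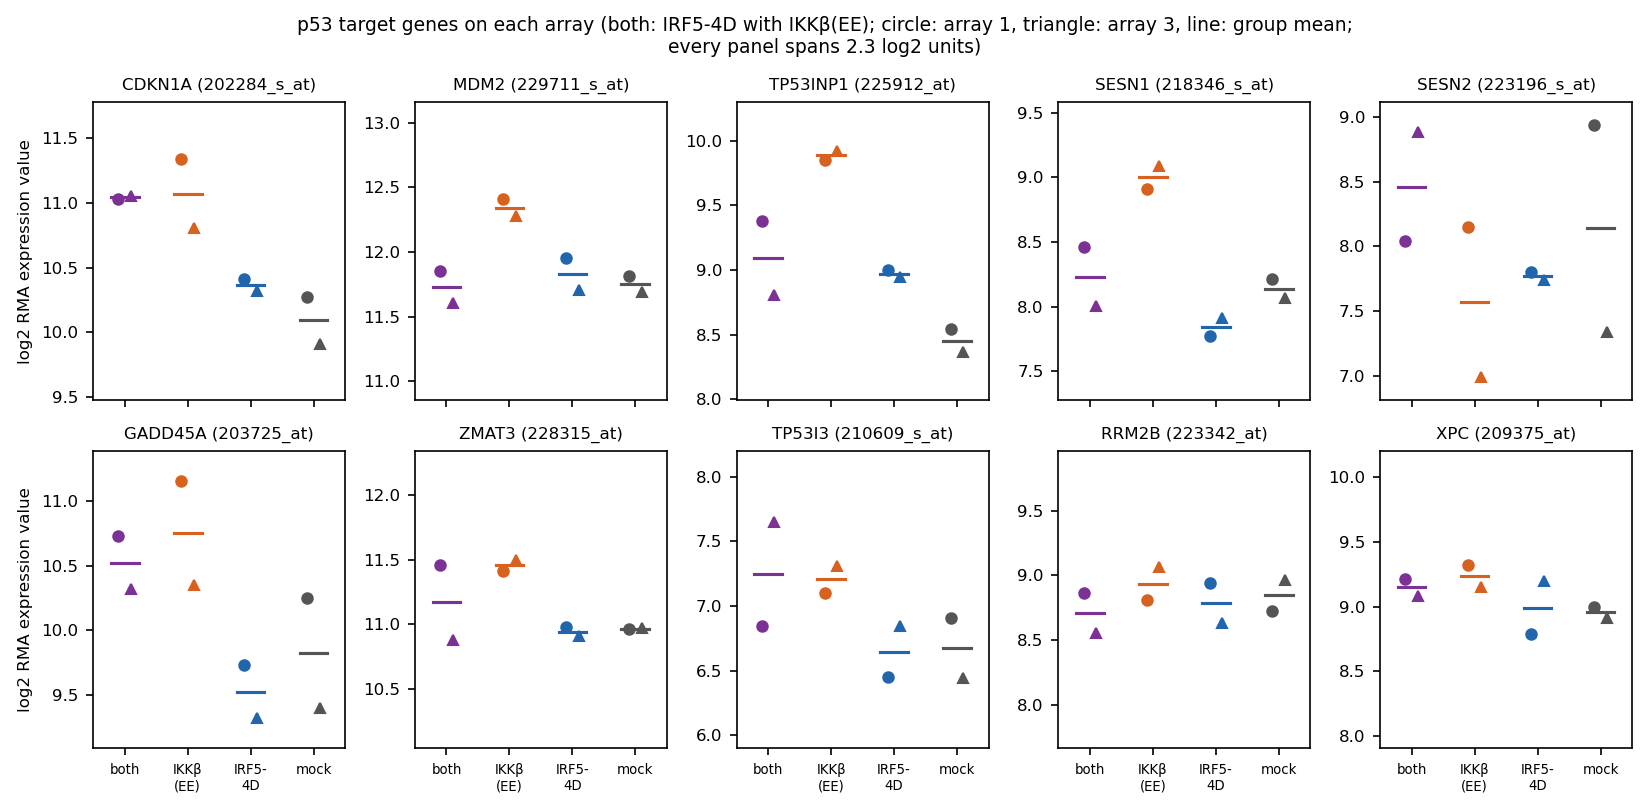
Log2 RMA values of the 10 genes, each at its probe set with the highest mean, on each of the 8 arrays; the x axis gives the group, with the combination labelled both. The IKKβ(EE) arrays of MDM2, TP53INP1 and SESN1 sit above all other arrays, CDKN1A and GADD45A are high in both groups with IKKβ(EE), and the SESN2 arrays of mock, IKKβ(EE) and the combination lie far apart within their group.

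The sestrins restrain the growth kinase complex mTORC1, and no difference of either gene passed in any comparison. SESN1 read 8.46 and 8.0 in the combination, 8.91 and 9.09 with IKKβ(EE), 7.77 and 7.92 with IRF5-4D, and 8.21 and 8.06 in mock cells. The IKKβ(EE) arrays were the highest, and those of the combination spanned the mock values. SESN1 differed from mock by 0.86 (SE 0.16) with IKKβ(EE), or 1.82-fold, and did not pass (limma adjusted p = 0.103). The combination differed from IKKβ(EE) by -0.77 (SE 0.16, limma adjusted p = 0.0719) and from mock by 0.093 (SE 0.16).

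SESN2 on 223196_s_at read 8.04 and 8.88 in the combination, 8.15 and 6.99 with IKKβ(EE), 7.80 and 7.74 with IRF5-4D, and 8.94 and 7.34 in mock cells. The mock arrays lay 1.60 apart, a gap larger than that of 99.9% of probe sets, and they enclosed the values of the combination and of IRF5-4D. The other SESN2 probe set gave the same picture, at 8.26 and 6.74 in mock cells. The difference from mock was 0.32 (SE 0.51) in the combination and -0.57 (SE 0.51) with IKKβ(EE), and neither was detectable at this spread.

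ZMAT3 encodes a zinc finger protein that binds RNA. Its probe set with the highest mean read 11.46 and 10.88 in the combination, 11.41 and 11.50 with IKKβ(EE), 10.98 and 10.91 with IRF5-4D, and 10.96 and 10.97 in mock cells. On 5 of its 5 probe sets both IKKβ(EE) arrays lay above both mock arrays, by 0.22 to 0.60, and none passed. On the first of these, combination array 1 lay between the IKKβ(EE) arrays and array 3 lay below both mock arrays.

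TP53I3, an oxidoreductase gene linked to p53-induced cell death, read 6.85 and 7.65 in the combination, 7.10 and 7.31 with IKKβ(EE), 6.45 and 6.84 with IRF5-4D, and 6.91 and 6.45 in mock cells. The IKKβ(EE) arrays lay above the mock arrays, while the combination overlapped with mock. Its differences from mock were 0.57 (SE 0.26) in the combination and 0.53 (SE 0.26) with IKKβ(EE), and neither passed. RRM2B, which supplies a ribonucleotide reductase subunit for repair, spanned 0.51 over all 8 arrays, and XPC, which recognises damaged bases, spanned 0.54. Relative to mock RRM2B read -0.13 (SE 0.17) in the combination and 0.09 (SE 0.17) with IKKβ(EE), and XPC read 0.19 (SE 0.15) in the combination and 0.28 (SE 0.15) with IKKβ(EE).

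With IRF5-4D alone both arrays lay above both mock arrays on 2 of the 26 probe sets, against 14.8% of all, and below them on 2, against 17.5%. Here 0 of the 26 probe sets passed in limma, against 0.194% of all probe sets, and 1 had an unadjusted p under 0.05, that of TP53INP1, which is 3.85% of the members against 5.39% of all probe sets. The 26 differences from mock ran from -0.37 to 0.52, with a median over the 10 genes of -0.027. Adding IKKβ(EE) to IRF5-4D gave 0 passing probe sets in limma, against 0.842% of all, and 4 with an unadjusted p under 0.05, which is 15.4% of the members and near the 11.8% of all probe sets. These 4 were GADD45A at 1.0 (SE 0.32), CDKN1A at 0.68 (SE 0.19), TP53I3 at 0.60 (SE 0.26) and SESN1 at 0.39 (SE 0.16). Both combination arrays lay above both IRF5-4D arrays on 6 of the 26, against 17.9% of all probe sets, and below them on 3, against 23.4%. The interaction, which takes the sum of the single-construct differences from the difference of the combination, also had 0 passing in limma, against 0.0623% of all, and 7 with an unadjusted p under 0.05, each below 0, which is 26.9% of the members against 6.48% of all probe sets. All of these 7 were probe sets of MDM2 except that of TP53INP1, so they stand for few genes. The interaction was -1.31 (SE 0.25, limma adjusted p = 0.193) for TP53INP1 and -1.22 (SE 0.29, limma adjusted p = 0.349) for MDM2 on 211832_s_at. That MDM2 and TP53INP1 depart from additive log2 changes was therefore not shown over all probe sets.

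Other genes of the pathway were counted at 1 probe set each, and all 19775 genes were counted in the same way as their background. Of 41 other p53 targets 2 rose with IKKβ(EE), 0 fell and 39 did not pass, against 0.425% of all genes higher and 0 lower. They were RNF144B, a ubiquitin ligase gene, by 5.38 (SE 0.23) and the death receptor gene FAS by 2.47 (SE 0.35). In the combination 3 of the 41 rose relative to mock, 1 fell and 37 did not pass, against 2.38% of all genes higher and 0.359% lower. FAS rose by 2.53 (SE 0.35), RNF144B by 2.53 (SE 0.23) and the autophagy gene DRAM1 by 0.65 (SE 0.12), and the lysosomal fucosidase gene FUCA1 fell by 1.18 (SE 0.24). RNF144B read 7.55 and 6.92 in the combination, 10.36 and 9.81 with IKKβ(EE), 5.07 and 4.96 with IRF5-4D, and 4.82 and 4.59 in mock cells. The combination lay between IKKβ(EE) and the other groups, and its interaction of -3.16 (SE 0.32) passed with a limma adjusted p of 0.0155. FAS read 9.66 and 8.62 in the combination and 9.42 and 8.75 with IKKβ(EE), against 5.91 and 5.95 with IRF5-4D and 6.96 and 6.27 in mock cells, so that here the ranges of both groups with IKKβ(EE) overlapped. The list's median difference from mock was 0.13 in the combination (all genes -0.027), 0.25 with IKKβ(EE) (all genes -0.025) and -0.041 with IRF5-4D (all genes -0.016).

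Cell cycle genes that p53 is known to lower through p21 were examined beside CDKN1A. Of 33 such genes 1 fell in the combination relative to mock, 0 rose and 32 did not pass, against 0.359% of all genes lower. It was MCM5, part of the replicative helicase, which fell by 0.63 (SE 0.13, limma adjusted p = 0.0467). In the combination 1 of the 33 differences from mock was above 0, with a median of -0.21, against 44.4% of all genes above 0. With IKKβ(EE) alone 10 of the 33 were above 0, with a median of -0.074, against 43.8% of all genes. With IRF5-4D 31 of the 33 were above 0, with a median of 0.13, against 45.7% of all genes. In both of these comparisons 0 of 33 passed in limma. Mock array 1 read below mock array 3 on all of the 33 genes but MYBL2, MCM5 and BIRC5. RRM2, for example, read 12.11 and 12.78 on mock arrays 1 and 3, against 12.72 and 12.73 with IRF5-4D. The 33 genes share the cell cycle and are not independent, and their counts above 0 relative to mock share the mock arrays. Without mock arrays, the combination minus IRF5-4D had 0 of the 33 above 0, with a median of -0.41. The combination minus IKKβ(EE) had 3 of the 33 above 0, with a median of -0.17. Each compares with 48.7% of all genes above 0, and 0 of the 33 passed in limma in either. Of 18 upstream pathway genes, among them the p53 inhibitor MDM4 and the damage kinases ATM and ATR, 0 passed in limma in any of the 3 comparisons with mock, and the medians were -0.053 in the combination, -0.015 with IKKβ(EE) and 0.005 with IRF5-4D. The largest of these differences with IKKβ(EE) were -0.41 (SE 0.18) for PPP1R13B and -0.40 (SE 0.16) for PPP1R13L, which encode proteins that bind p53.

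Of 14 NF-κB feedback genes 5 rose in the combination, 0 fell and 9 did not pass, against 2.38% of all genes higher, and the median was 0.90, against -0.027 over all genes. With IKKβ(EE) alone 1 rose, the NF-κB subunit gene NFKB1 by 0.91 (SE 0.13), against 0.425% of all genes higher, and the median was 0.76, against -0.025 over all genes. The signalling adaptor gene TRAF1 rose by 3.74 (SE 0.30) in the combination, where it was 2.34 (SE 0.30, limma adjusted p = 0.00666) above IKKβ(EE) alone. In that comparison 1 of the 14 rose, 0 fell and 13 did not pass, against 1.19% of all genes higher. Of the 14 differences 9 were above 0, against 48.7% of all genes. MDM2, on 2 of its 10 probe sets, and RNF144B were thus lower in the combination than with IKKβ(EE). RNF144B was the 1 of the 41 other p53 targets that fell there, against 0.303% of all genes lower, and 0 rose. TRAF1 was higher, alone among the 14 feedback genes in passing. IKBKB on 211027_s_at was also lower, at 11.11 and 9.33 in the combination against 12.57 and 10.98 with IKKβ(EE). The part of this lower IKBKB level in these differences was not tested.

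**Figure D4:**
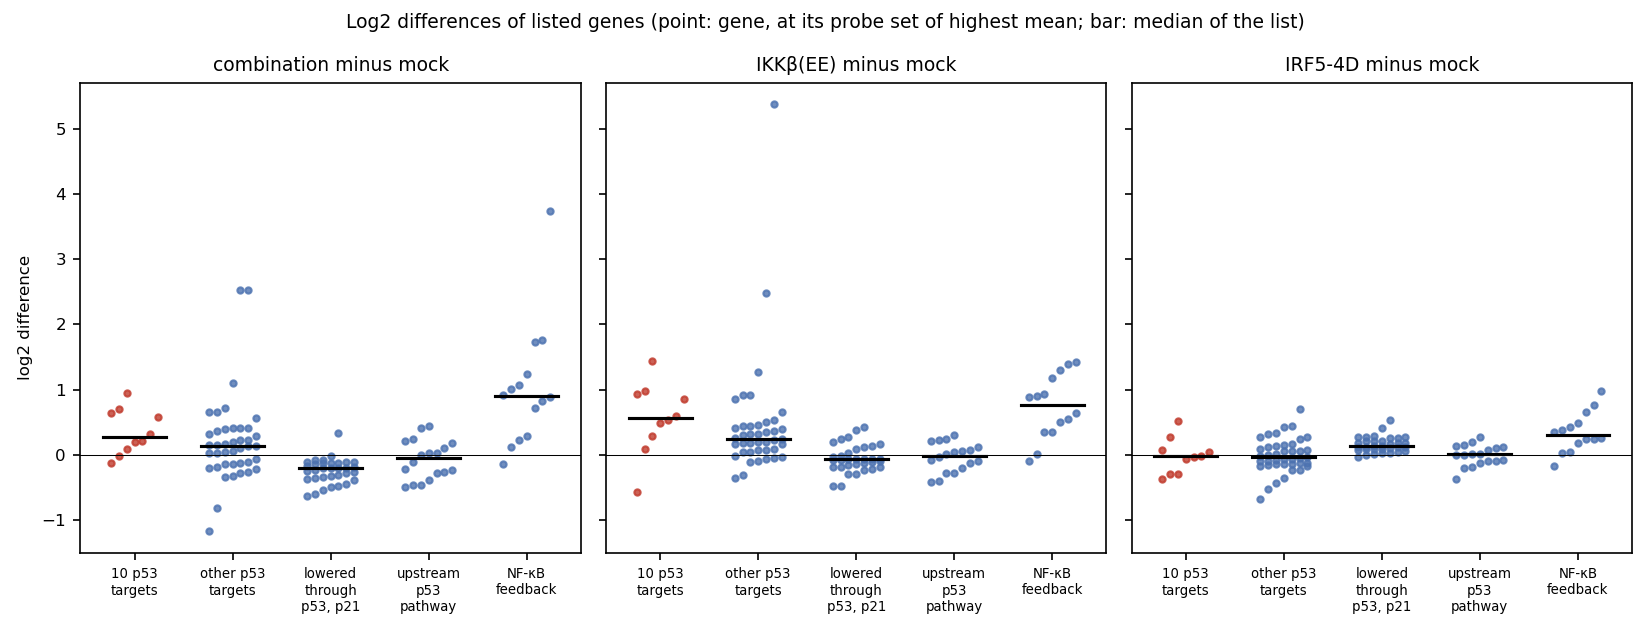
Log2 difference from mock (y axis) of each gene of 5 lists (x axis), at its probe set with the highest mean, for the combination, IKKβ(EE) and IRF5-4D; bars are list medians. With IKKβ(EE) 9 of the 10 p53 targets lie above 0, and in the combination nearly all genes lowered through p53 and p21 lie below 0.

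The calls rest on few arrays. With each array left out in turn TP53INP1 differed from mock by 1.35 to 1.52 with IKKβ(EE) and kept its call in 4 of 8 fits, losing it without either IKKβ(EE) array or either mock array. The MDM2 probe set 205386_s_at ranged from 1.31 to 1.94 and kept its call in 3 of 8, losing it without either IKKβ(EE) array, either IRF5-4D array or mock array 3. CDKN1A in the combination ranged from 0.77 to 1.13 and kept its call in 2 of 8, those without an IKKβ(EE) array. The MDM2 probe sets 211832_s_at and 217373_x_at kept their calls against mock in 2 of 8 and 3 of 8 fits, both losing them without either IKKβ(EE) array, either IRF5-4D array or mock array 3, and 211832_s_at also without mock array 1. For the combination against IKKβ(EE) 211832_s_at ranged from -0.85 to -1.43 and 217373_x_at from -0.83 to -1.13. Each kept that call in 3 of 8 fits, losing it without combination array 3, either IKKβ(EE) array or either IRF5-4D array. With the mean of all its probe sets TP53INP1 read 0.48 and did not pass.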

How the data were processed

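Total RNA of 8 samples of transfected Reh cells was hybridised to Affymetrix U133 Plus 2.0 arrays. The deposited values are log2 expression values made by the authors with RMA, per the submitters' processing notes. The labels state no software version. RMA normalizes arrays to a common distribution, so a change shared by most genes would not be seen. Groups came from the sample labels. Of 54675 probe sets 62 array controls were left out. Probe sets were named by the platform annotation of 2016, which gave exactly 1 symbol for 41091, and the symbols of all 26 member probe sets were unchanged in RefSeq by Entrez identifier.

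For each probe set limma estimated the 4 group means from the 8 arrays, using limma 3.58.1 under R 4.3.3 (lmFit and eBayes, 4 residual and 5.28 prior degrees of freedom). Benjamini-Hochberg adjustment covered the 54613 probe sets, and a probe set was called at an adjusted p under 0.05. No filter on level was applied. Errors are moderated standard errors. In results over genes, each gene was represented by its probe set with the highest mean over the 8 arrays. The text gives that probe set of each member gene and any other that passed; of each list it names up to 4 genes that passed with the largest change, or up to 2 as values. Members and lists were chosen with earlier results of these data known, and the lists come from general knowledge. Of their listed genes, those without a probe set of 1 symbol are not analysed here. The procedure was tested on simulated data for the combination against mock, with 200 of 54613 probe sets changed and 5 draws. At a log2 change of 1 it recovered 93% of them, and 9% of its calls were false, above the nominal share. The simulated noise was normal, independent between arrays and probe sets, and drawn with the moderated variances. The share recovered in the real data may therefore be lower. The alternatives tried were other choices of probe set, a filter on level, median centring, another quantile normalization, trended and robust variance, a replicate block, a fit of 2 groups, other thresholds and leaving out each array.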

Additional observations from a re-analysis of the deposited data

How the results depend on the processing

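The counts of member probe sets that passed were 4 for IKKβ(EE) against mock, 1 for the combination against mock, 2 for the combination against IKKβ(EE), and 0 for IRF5-4D against mock, the combination against IRF5-4D and the interaction. For IKKβ(EE) against mock the count was 1 with 1 probe set per gene, 0 with probe sets averaged per gene, 1 in a fit of the 2 groups alone, and 0 to 5 with an array left out. For the combination against mock it was 0 in a fit of the 2 groups alone, 0 with a change of at least 2-fold also required, and 0 to 1 with an array left out. For the combination against IKKβ(EE) it was 0 with 1 probe set per gene or the mean, 1 without _x_at probe sets, 0 in a fit of the 2 groups alone, 7 at an adjusted p under 0.1, 1 with at least 2-fold, and 0 to 5 with an array left out. For the interaction it was 0 to 1 with an array left out, and the probe set that passed, without combination replicate 1, was TP53INP1. A fit without an array leaves a group of 1, assumed to vary like the others. With the replicate number as a block the counts were 7, 2, 1 and 7 for IKKβ(EE) against mock, the combination against mock, the combination against IRF5-4D and the combination against IKKβ(EE). The labels do not say what the numbers mark, the gaps between arrays 1 and 3 correlated between groups at -0.053 to 0.304, and so the block is given here only. Among the calls that the block added were those of GADD45A (limma adjusted p = 0.03 with IKKβ(EE), 0.0371 in the combination against mock and 0.0127 against IRF5-4D) and of CDKN1A with IKKβ(EE) (limma adjusted p = 0.025). For the combination against IKKβ(EE) they included TP53INP1 on 225912_at (limma adjusted p = 0.0415). MDM2 was also among them, on 205386_s_at (limma adjusted p = 0.0265) and 229711_s_at (limma adjusted p = 0.0322). No member difference that passed changed sign under any alternative run, and genes of the other lists were not run under them. Over all probe sets the counts ranged under the alternatives from 32 to 174 for IRF5-4D against mock (106), from 35 to 317 for IKKβ(EE) against mock (165), from 510 to 1919 for the combination against mock (1139), from 64 to 954 for the combination against IRF5-4D (460), from 202 to 1038 for the combination against IKKβ(EE) (607) and from 1 to 128 for the interaction (34). The cause of these shifts was not tested.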

Other observations

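The direction in which the SESN2 arrays differed within groups was compared with that of stress genes of the ATF4 pathway, which is known to raise SESN2 when amino acids are short or protein folding fails. The list of 10 genes was chosen after the SESN2 values were seen and is given without a test. TRIB3, an inhibitory pseudokinase, read 10.52 and 12.27 on arrays 1 and 3 of the combination, 11.42 and 10.01 with IKKβ(EE), 10.89 and 9.14 with IRF5-4D, and 12.44 and 9.81 in mock cells. As for SESN2, array 1 was the higher in mock cells and with IKKβ(EE), and array 3 was the higher in the combination. DDIT4, an inhibitor of mTORC1 signalling, read 12.58 and 13.05 in the combination, 12.84 and 12.08 with IKKβ(EE), 12.51 and 12.06 with IRF5-4D, and 13.18 and 11.95 in mock cells. CHAC1, which degrades glutathione, read 7.29 and 8.19 in the combination, 6.92 and 6.0 with IKKβ(EE), 7.17 and 6.63 with IRF5-4D, and 7.85 and 7.17 in mock cells. TRIB3, DDIT4 and CHAC1 are the 3 of the list with the highest correlation with SESN2. The mock gaps of ATF4, PSAT1 and VLDLR were 0.13, 0.12 and 0.11, below the median gap of 0.158 over all probe sets. The correlation with SESN2 over the 8 arrays was 0.17 for SLC7A11 and 0.20 for VLDLR, against 0.93 for DDIT4. The direction of the gaps in the combination, IKKβ(EE) and mock was that of SESN2 for 9 of the 10 genes, against 13.9% of 19775 genes, and the exception was ATF3. That direction was read from SESN2 on these same arrays, so the count is a description only. VLDLR, counted among the 9, read 3.32 and 3.21 in mock cells, below the lower quartiles of those arrays, 3.711 and 3.725. With IRF5-4D the SESN2 arrays lay 0.061 apart, whereas those of TRIB3 lay 1.76 apart.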
